A study of Mus musculus with 84 samples.

Results

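A set of 9 genes of central nervous system myelin was followed through every library of the study: Mbp, Mog, Mag, Mobp, Cnp, Mal, Cldn11, Ermn and Opalin. They were chosen by name as myelin genes, a rule that uses no measured value, and make up 9 of the 48526 genes counted in the experimental autoimmune encephalomyelitis (EAE) experiment and 9 of the 25773 counted in the experiment on astrocyte subtypes. All 9 were present in both count tables and passed the filter on low counts. The libraries were labelled as astrocytes and came from cells sorted for the astrocyte surface antigen ACSA-2 and against the leukocyte antigens CD11B and CD45.

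Myelin is the spirally wrapped membrane that oligodendrocytes lay around axons, and its major proteins are made almost wholly by mature oligodendrocytes. Mbp, myelin basic protein, holds the cytoplasmic faces of the wrapped membrane together, and Mobp is a basic protein of the same compact layers. Mog sits on the outermost lamella, Mag on the innermost lamella facing the axon, Cldn11 forms the tight junctions between lamellae, and Mal is a proteolipid that sorts membrane to the sheath. Cnp is a phosphodiesterase of the non-compacted, cytoplasm-filled parts of the sheath, Ermn is a cytoskeletal protein of late oligodendrocytes, and Opalin is an oligodendrocyte membrane glycoprotein of the paranodal loops. EAE is an autoimmune disease model in which mice are immunized against myelin. Here the antigen was a peptide of Mog itself, residues 35 to 55.

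In the EAE experiment, 66 libraries fell into 12 groups of C57BL/6J mice. They covered 4 states: unimmunized controls (C), EAE at score 1 (E1, limp tail), EAE at score 4 (E4, complete hind leg paralysis) and chronic EAE (Ech). Mice were female and 10 weeks old when they were immunized with the Mog peptide in complete Freund's adjuvant and given pertussis toxin, and the controls were not immunized. Each state was sampled as hindbrain cells without the glutamate transporter GLAST on their surface (hindbrain GLASTneg), hindbrain cells with it (hindbrain GLASTpos) and spinal cord GLASTneg cells. There were 5 control libraries in each of the 3 populations, 6, 6 and 5 at E1, 6 in each at E4, and 6, 4 and 6 at Ech, in that order. In the subtype experiment, untreated FVB/N mice gave 3 libraries each of forebrain GLASTneg, forebrain GLASTpos, hindbrain GLASTneg, hindbrain GLASTpos and spinal cord GLASTneg cells, and 3 libraries came from cultured neonatal astrocytes of C57BL/6J cerebrum. Cells of up to 2 mice were pooled for a library. Numbers in the EAE sample titles recur between populations of a state and the labels do not say what they mean, so libraries of different populations may share mice, and p-values measure the spread between these libraries. A bulk library cannot tell fewer cells of a type from less RNA per cell.

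Levels are given as CPM, the counts of a gene from 3′-end sequencing scaled by the total count of its library after that total was adjusted by edgeR's TMM factor, which was set within each experiment, and levels of different genes are not ranked against each other. The EAE libraries held 1313682 to 4895220 counts, so that 3 counts stood for 0.634 to 2.44 CPM, and the isolated subtype libraries held 416768 to 1269316 counts, so that 3 counts stood for 2.44 to 6.995 CPM. Several libraries departed from their labels or from their group. One E1 spinal cord library (replicate 1) is titled spinal cord but carries hindbrain in its region field. Its summed level of 5 Hox genes of the cord was 179 CPM, against at most 11 CPM in any EAE hindbrain library. In the subtype experiment, the group names that the study's own expression table gives the same libraries differ from the labels for 12 of the 15 isolated libraries. Cord Hox genes summed to 410.4 to 493.2 CPM in the libraries labelled hindbrain GLASTneg and to 0 in those labelled spinal cord GLASTneg, so groups of that experiment are written below as labelled and both namings are given. Slc1a2, Aqp4 and the other genes of an 11-gene astrocyte list summed to 22325 to 42712 CPM in the hindbrain libraries and to 27341 to 38159 CPM in the isolated subtype libraries, but to 2868 to 4491 CPM in spinal cord libraries at E4. Markers of Schwann cells, which make peripheral myelin, summed to at most 6.58 CPM in any EAE library.

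Positions are given in the mouse genome build GRCm38. Cldn11 spans chr3:31149920-31164324 on the plus strand, Mobp chr9:120149707-120181484 on the plus strand and Cnp chr11:100574904-100591729 on the plus strand. Mag (chr7:30899176-30914873), Mog (chr17:37010743-37023398), Ermn (chr2:58045113-58052864), Mal (chr2:127633226-127656695) and Opalin (chr19:41061710-41077113) lie on the minus strand. Cnp overlaps Dnajc7, a protein-coding gene on the other strand, and Ermn overlaps Galnt5 in the same manner. Reads of such a pair cannot be told apart unless counting used the strand, and the strand setting is not given in the sources used here. RefSeq promoters (GRCm38.p6, 250 bases before to 50 after a start) were at hand for 8 of the 9 genes. The 3 promoters shown are those of Mobp and Cldn11, whose transcripts were called in more EAE comparisons than those of the other members, and of Cnp, whose transcript followed a different pattern. Capitals mark matches on either strand to ACAAAG or ACAATG, letters of the HMG-box site of Sox factors such as Sox10, and to CTGGNAC, letters of the site of the myelin regulatory factor Myrf. Coordinates are chr9:120149492-120149791, chr3:31149670-31149969 and chr11:100574689-100574988, all plus strand.
Mobp: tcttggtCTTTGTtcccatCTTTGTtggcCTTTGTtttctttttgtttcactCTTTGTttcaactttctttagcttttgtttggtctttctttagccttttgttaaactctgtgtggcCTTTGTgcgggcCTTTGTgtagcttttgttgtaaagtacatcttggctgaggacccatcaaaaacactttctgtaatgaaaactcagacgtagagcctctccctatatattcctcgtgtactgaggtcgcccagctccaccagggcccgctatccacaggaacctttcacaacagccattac
Cldn11: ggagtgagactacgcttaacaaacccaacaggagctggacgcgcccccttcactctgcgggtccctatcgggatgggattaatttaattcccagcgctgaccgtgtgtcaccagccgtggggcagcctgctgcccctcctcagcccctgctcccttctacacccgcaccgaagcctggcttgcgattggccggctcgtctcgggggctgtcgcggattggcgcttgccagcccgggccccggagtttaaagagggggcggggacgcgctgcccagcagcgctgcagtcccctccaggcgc
Cnp: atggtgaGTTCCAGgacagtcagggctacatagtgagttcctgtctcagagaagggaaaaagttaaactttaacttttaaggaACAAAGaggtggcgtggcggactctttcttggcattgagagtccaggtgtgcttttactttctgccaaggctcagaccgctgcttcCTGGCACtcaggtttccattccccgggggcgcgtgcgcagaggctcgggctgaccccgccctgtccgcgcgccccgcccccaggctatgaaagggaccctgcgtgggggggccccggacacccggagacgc
The Mobp window held 6 matches to ACAAAG and the Cnp window held 1, together with 2 matches to CTGGNAC. These counts were not particular to Cnp. A Mag window (chr7:30914814-30915113) also held 1 and 2, and the Opalin window held 2 and 1. None of the motifs was found in the Cldn11 or Mal window. Among 32851 promoters of the same length, 18.7% held ACAAAG, 12.6% held ACAATG and 19.3% held CTGGNAC.

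In unimmunized mice, the 9 genes separated the 3 populations. Of the 9, 8 were higher in hindbrain GLASTneg than in hindbrain GLASTpos libraries, and all 9 were higher again in spinal cord GLASTneg than in hindbrain GLASTneg libraries. Mag stood at 17.01 to 42.1 CPM in GLASTpos, 161 to 413 CPM in GLASTneg and 985 to 3204 CPM in spinal cord controls. Mog, the immunizing antigen, was near the limit of detection in GLASTpos controls, with 2.45, 0, 5.55, 1.27 and 1.96 CPM. The GLASTneg controls had 43.8, 8.28, 21.3, 30.8 and 17.4 CPM of Mog, and the spinal cord controls 130, 227, 425, 176 and 161 CPM. For Mog the 3 sets of control libraries did not overlap.

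A gene was called where edgeR's quasi-likelihood test gave a Benjamini-Hochberg adjusted p under 0.05 and a log2 fold change over 1 in size. Hindbrain GLASTneg exceeded GLASTpos by 2.23 ± 0.38 (log2, SE) for Mbp to 3.43 ± 0.61 for Mog, with adjusted p of 0.00706 for Opalin and 2.04e-05 or less for the other 7. Across all 23324 genes tested, 7.06% were called higher and 3.4% lower in this comparison. The groups did not overlap for 7 of the 8 higher genes, against 12.5% of all genes without overlap in either direction. Opalin, at 0 to 7.18 CPM in GLASTpos and 0 to 33.1 CPM in GLASTneg controls, overlapped. The number after the last S of an EAE sample title is called the sheet number here. The labels do not say what it means. Sheet numbers ran from 32 to 51 in GLASTneg and from 68 to 95 in GLASTpos controls. Their range and GLAST state therefore cannot be told apart. Limma voom over all 66 libraries called 0 of the 9 genes in this comparison, with or without libraries that share a title number as a block, and on the control hindbrain libraries alone it called 7 higher and Cnp lower. These fits without the block or on fewer libraries were chosen after seeing the data. In the limma fits over all 66 libraries, all 9 genes kept their direction. The share of all genes that limma called is not given here, so its counts have no background beside them. Spinal cord exceeded hindbrain GLASTneg by 1.94 ± 0.26 for Cnp to 3.19 ± 0.52 for Mog, with adjusted p of 0.00177 for Opalin and 6.16e-05 or less for the others, where 2.62% of all genes were called higher. All 9 genes were without overlap there, against 7.11% of all genes. Sheet numbers ran from 60 to 83 in the spinal cord controls, so sheet range and region cannot be told apart here either.

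**Figure D1:**
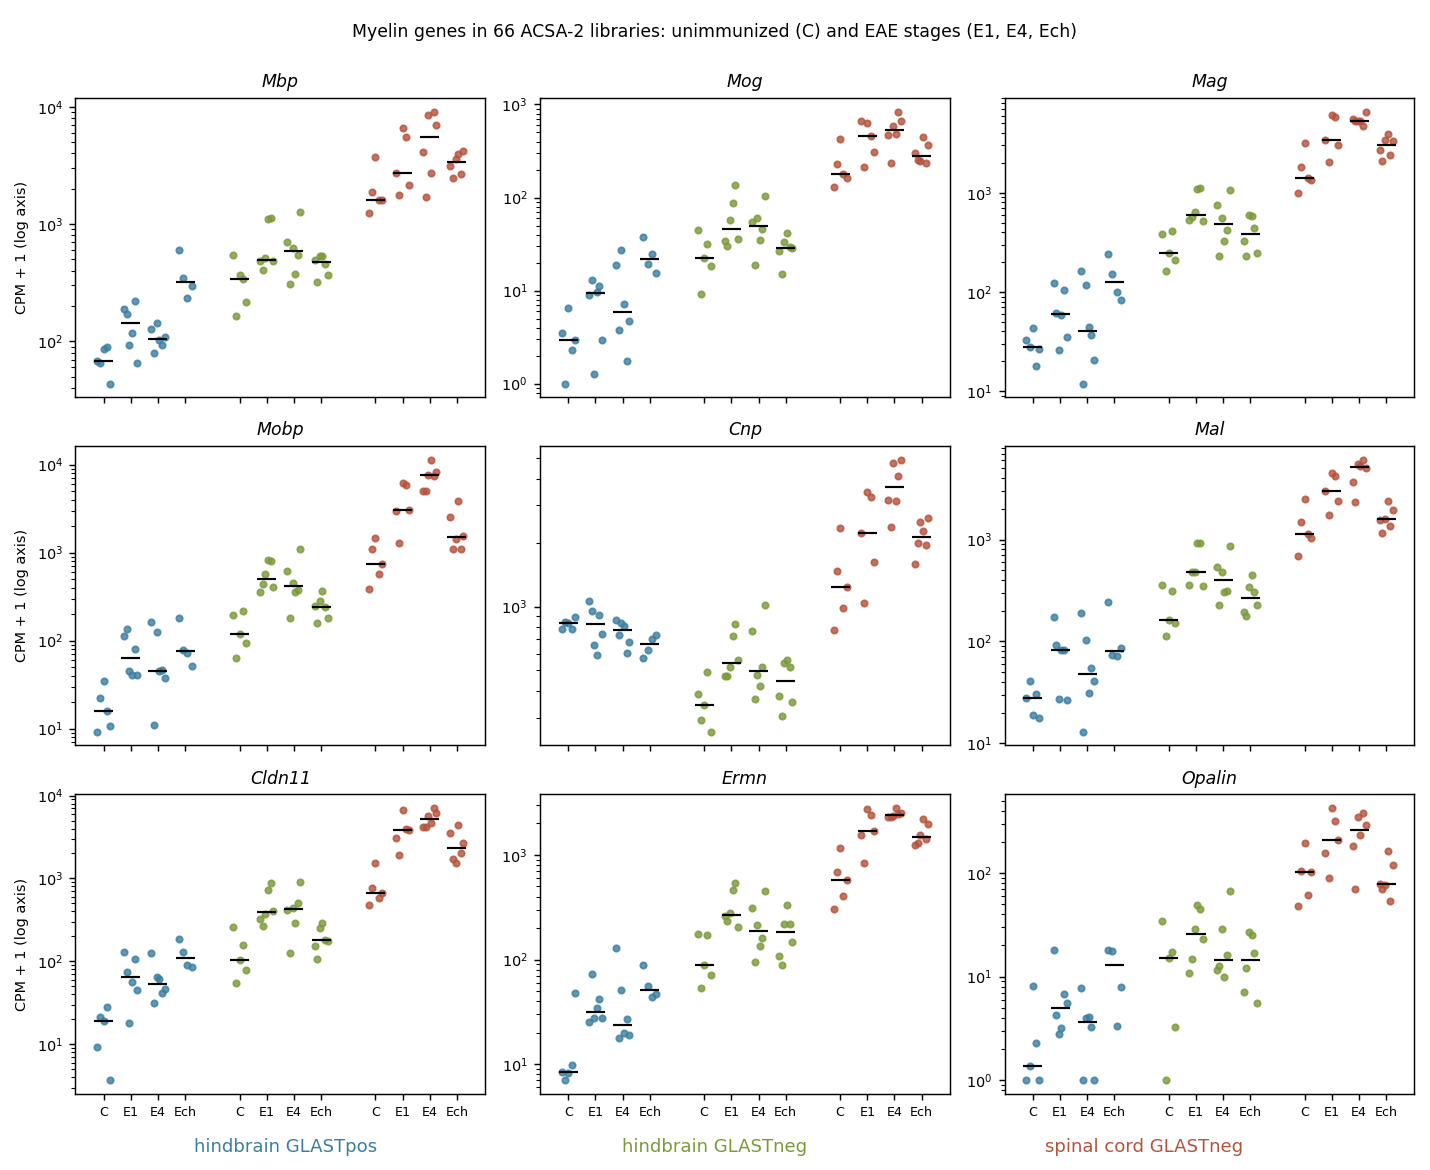
Level of each myelin gene in every EAE library (CPM + 1, log axis), by population and state; each point is a library and each bar a group median. Spinal cord GLASTneg medians lie highest for all 9 genes, though single libraries overlap with the hindbrain for some genes. Cnp is the only gene for which hindbrain GLASTpos medians lie above hindbrain GLASTneg medians of the same state.

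Cnp ran the other way in the hindbrain. The GLASTpos controls had 780, 849, 838, 781 and 894 CPM of Cnp, and the GLASTneg controls 385, 291, 344, 493.4 and 256 CPM. All GLASTpos libraries lay above all GLASTneg libraries, with a log2 difference of -1.23 ± 0.25 for GLASTneg against GLASTpos (edgeR, adjusted p = 0.000229). Dnajc7, which shares the locus on the other strand, had 287 to 505 CPM in the GLASTpos and 221 to 357 CPM in the GLASTneg controls, and its part in the Cnp counts was not tested. Over the 66 EAE libraries, the correlation of a gene's log2(CPM + 1) with the mean over all 9 was 0.96 to 0.99 for the other members and 0.73 for Cnp, each member being part of that mean. These points share populations and states, so the values are descriptive.

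In the spinal cord, 8 of the 9 genes rose at E4. Summed over the members, control libraries had 5048 to 16629 CPM (median 7479), E1 libraries 10893 to 37244 CPM (median 19749), E4 libraries 23574 to 42176 CPM (median 38354) and Ech libraries 12139 to 23522 CPM (median 16307). At E4 the 9 genes took up 2.40 to 3.81% of the counts of a library, and their median sum in CPM was 5.13 times that of the controls. Of the members, 4 were called higher at E1, 8 at E4 and 2 at Ech. Over all genes 2.5, 6.8 and 5.16% were called higher at these states.

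Mobp and Cldn11 showed the highest fold changes at E1 and E4. Cldn11 control libraries had 475, 765, 1543, 574 and 674 CPM. At E1 the values were 3038, 1894, 6736, 3998 and 3828 CPM, at E4 they ran from 4208 to 7066 CPM (median 5146), and at Ech from 1551 to 4365 CPM (median 2357). Every EAE spinal cord library lay above every control library for this tight junction gene. Of all genes, 4.28, 12.4 and 11.8% were without overlap with controls at E1, E4 and Ech, in either direction. The log2 fold changes of Cldn11 were 2.27 ± 0.43 at E1, 2.72 ± 0.43 at E4 and 1.71 ± 0.42 at Ech (edgeR, adjusted p = 0.000167, 6.46e-07 and 0.00134). For Mobp, controls had 387, 1110, 1469, 566 and 746 CPM, and E1 libraries 2986, 1272, 6099, 5902 and 3010 CPM. E4 libraries ran from 5022 to 11331 CPM (median 7516) and Ech libraries from 1089 to 3813 CPM (median 1482). E4 libraries stood apart from controls for Mobp, whereas 1 E1 library and some Ech libraries fell inside the control range. The log2 fold change of Mobp was 2.17 ± 0.46 at E1 and 3.12 ± 0.47 at E4 (edgeR, adjusted p = 0.000755 and 1.74e-07), and 1.16 ± 0.43 at Ech, which missed the threshold (adjusted p = 0.0504).

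Ermn, a late cytoskeletal gene of the lineage, was, besides Cldn11, the member called at all 3 states. Controls had 303, 686, 1170, 409 and 576 CPM of Ermn, E4 libraries 2298 to 2805 CPM (median 2416) and Ech libraries 1249 to 2226 CPM (median 1491). Neither set overlapped the controls, against 12.4 and 11.8% of all genes without overlap at E4 and Ech. The log2 fold changes of Ermn were 1.56 ± 0.44, 1.97 ± 0.43 and 1.36 ± 0.42 at E1, E4 and Ech (edgeR, adjusted p = 0.0139, 0.000258 and 0.0145). Mag, on the axonal face of the sheath, had 985, 1801, 3204, 1408 and 1355 CPM in controls and 4729 to 6591 CPM (median 5303) at E4. It was called at E1 (1.22 ± 0.41, adjusted p = 0.0495) and E4 (1.64 ± 0.41, adjusted p = 0.00131) in edgeR. Without the E1 library of conflicting labels, Mag at E1 was no longer called, while Cldn11, Mobp and Ermn were.

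Mbp, Mog, Mal and Cnp were called at E4 alone among the 3 comparisons of spinal cord with its controls. Controls had 1251, 1891, 3763, 1593 and 1599 CPM of Mbp, and E4 libraries 1701 to 9114 CPM (median 5569), so that the ranges overlapped. The log2 fold change of Mbp at E4 was 1.45 ± 0.35 (edgeR, adjusted p = 0.00109). Mog rose by 1.28 ± 0.46 (adjusted p = 0.0359), from 130 to 425 CPM in controls to 235 to 839 CPM (median 533) at E4. Mal rose by 1.76 ± 0.43 (adjusted p = 0.000999) and Cnp by 1.46 ± 0.25 (adjusted p = 2.32e-06). Opalin was not called at any state, with 46.6 to 196 CPM in controls, 69.2 to 375 CPM at E4 and a log2 fold change of 1.29 ± 0.58 there (edgeR, adjusted p = 0.1). One E4 library (replicate 2) had the lowest Mbp, Mog, Mal, Cnp and Opalin of its group and a summed myeloid level of 4369 CPM, against 113 to 250 CPM in the other 5. Without that library 8 members were still called.

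The replicate 3 control had the highest level of all 9 genes among the spinal cord controls. Without it, 7 members were called at E1 and 4 at Ech, and without control replicate 1 or 4 the counts fell to 2 and 1. Leaving out E1 replicate 3, which had the highest summed level of its group, also brought the E1 count to 2. At E4 the count stayed at 7 or 8 whichever library was left out. The share of all genes called is not given for any fit that leaves out a library, here or elsewhere in the text.

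**Figure D2:**
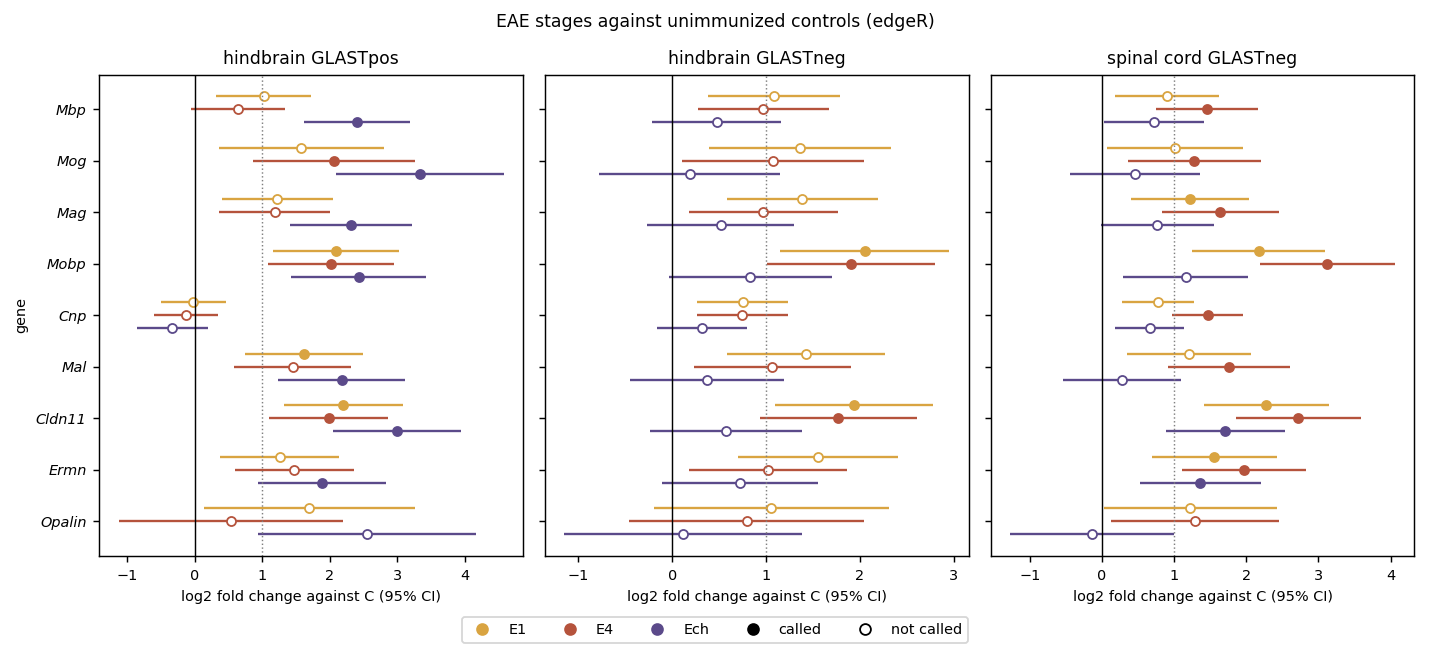
Log2 fold change of each gene at E1, E4 and Ech against unimmunized controls in the 3 populations, with 95% confidence intervals from edgeR; filled points were called and the dotted line marks a log2 fold change of 1. Spinal cord changes are highest at E4 for all 9 genes, hindbrain GLASTpos changes are highest at Ech for the 8 genes other than Cnp, and Cnp in hindbrain GLASTpos stays near 0.

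Markers of the sorted cells moved with these values in the spinal cord. The astrocyte sum was 16168 to 23851 CPM in controls, 5491 to 26809 CPM at E1, 2868 to 4491 CPM at E4 and 3765 to 6572 CPM at Ech, and 9 of the 11 astrocyte genes were called lower at E4 and 9 at Ech, where 11.1 and 9.57% of all genes were. In addition, 9 of 12 myeloid genes and 3 of 6 T cell genes were called higher at E4, where 6.8% of all genes were. Of the neuron list, 5 of 6 genes were called lower at E4, and its sum went from 132.7 to 294.2 CPM in controls to 25.9 to 87.5 CPM. Of the ependymal list, 2 of 5 genes were called lower. Atp1b2, the gene of the ACSA-2 antigen on which the cells were sorted, went from 5175 to 7706 CPM in controls to 103 to 599 CPM at E4. Gfap, the filament protein of reactive astrocytes, rose at E4 by 1.10 ± 0.34 (edgeR, adjusted p = 0.0131). The single E1 library with a control-like astrocyte sum, 26809 CPM in replicate 2, had the lowest member sum of its group at 10893 CPM, and E1 replicate 3 had the lowest astrocyte and the highest member sum. At Ech the astrocyte sum was nearly as low as at E4 while the median member sum was 16307 against 38354 CPM. The 5 cord Hox genes summed to 288 to 483 CPM in controls and 34.1 to 84.4 CPM at E4. Libraries with a sheet number of 57 or more made up 5 of 5 controls, 4 of 5 at E1, 1 of 6 at E4 and 4 of 6 at Ech. With that range as a covariate 5, 7 and 2 members were called, and the share over all genes is not given here. The part of the marker changes in the myelin levels was not tested.

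**Figure D3:**
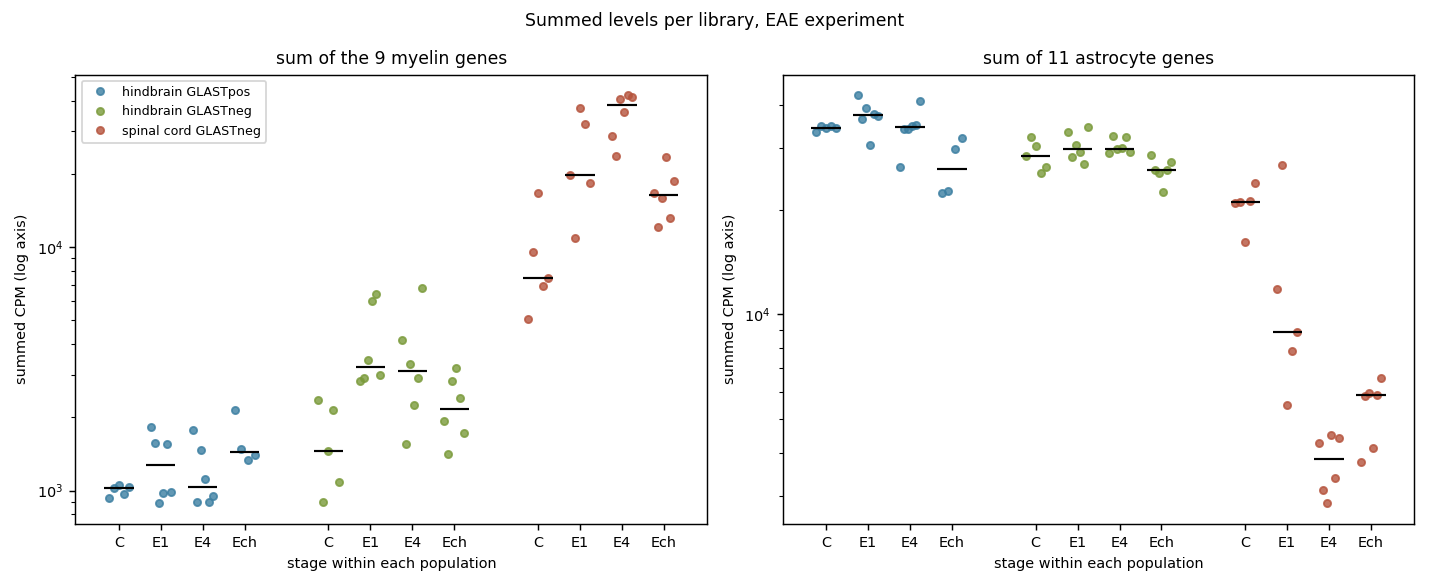
Summed level of the 9 myelin genes and of the 11 astrocyte genes in every EAE library (CPM, log axis), by population and state; points are libraries and bars medians. In the spinal cord the E4 libraries have the highest myelin sums, 23574 to 42176 CPM, and astrocyte sums of 2868 to 4491 CPM, while hindbrain astrocyte sums stay between 22325 and 42712 CPM.

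Between E4 and Ech, 2 members fell in the spinal cord. Mobp fell by 1.96 ± 0.42 on the log2 scale and Mal by 1.48 ± 0.40 (edgeR, adjusted p = 0.00136 and 0.0151), where 1.22% of all genes were called lower. Without Ech replicate 2 only 1 of these calls remained. The ranges of Mag, Mobp and Ermn did not overlap between E4 and Ech, against 2.34% of all genes. Ermn at -0.61 ± 0.39 and Cldn11 at -1.01 ± 0.38 were not called.

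In hindbrain GLASTneg libraries the same 2 genes, Mobp and Cldn11, were called at both E1 and E4, comparisons which share their control libraries. Cldn11 controls had 257, 54.3, 103, 155 and 77.6 CPM. E1 libraries ran from 268 to 883 CPM (median 390), E4 libraries from 125 to 893 CPM (median 422) and Ech libraries from 106 to 292 CPM (median 178). E1 libraries stood above all controls and the others overlapped them. The log2 fold changes of Cldn11 were 1.94 ± 0.42 at E1 and 1.77 ± 0.42 at E4 (edgeR, adjusted p = 0.0054 and 0.0136). Mobp had 195, 61.6, 118, 214 and 92.7 CPM in controls, 352 to 824 CPM (median 504) at E1, 182 to 1098 CPM (median 412) at E4 and 159 to 366 CPM (median 241) at Ech. Its log2 fold changes were 2.05 ± 0.45 and 1.91 ± 0.45 at E1 and E4 (edgeR, adjusted p = 0.00621 and 0.0125). Over all genes 0.635% were called higher at E1 and 0.707% at E4.

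The other 7 genes had log2 fold changes of 0.75 to 1.56 at E1 and 0.75 to 1.07 at E4 in hindbrain GLASTneg libraries, without a call. Mag and Ermn libraries at E1 nonetheless lay above all controls, as did those of Mobp and Cldn11, against 2.13% of all genes. At Ech no member was called by edgeR or by DESeq2, and log2 fold changes ran from 0.11 to 0.83, where 0.189% of all genes were called higher. An unadjusted p under 0.05 was found there for 0 members and for 1783 of all 23324 genes. The calls rested on few libraries. Without control replicate 2, the lowest of its group for both genes, neither comparison had a call, and the E4 calls were also lost without control replicate 3 or 5 or E4 replicate 6. A fit of the hindbrain GLASTneg libraries alone called 7 members at E1, and its share over all genes is not given here. Astrocyte sums overlapped between states here, with medians of 28502 CPM in controls and 29949 and 29963 CPM at E1 and E4. The myeloid sum had a median of 76.8 CPM in controls and 240 and 267 CPM at E1 and E4, and its part in the member levels was not tested.

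Hindbrain GLASTpos cells had the lowest levels of 8 of the 9 genes and more calls at Ech than at E1 or E4. In all, 7 members were called higher at Ech, against 3 at E1 and 3 at E4, where 1.21, 1.27 and 1.66% of all genes were called higher. Mbp had 66.6, 64.4, 84.5, 88.9 and 42.7 CPM in controls and 595, 345, 233 and 298 CPM at Ech. The 4 chronic libraries lay above all controls and also above all 6 E4 libraries, which had 78.8 to 142 CPM. Of all genes, 3.76% were without overlap against controls and 3.8% against E4. The log2 fold change of Mbp was 2.40 ± 0.39 against controls (edgeR, adjusted p = 0.00017) and 1.76 ± 0.36 against E4 (adjusted p = 0.000993), the only member called in that second comparison, where 2.7% of all genes were called higher.

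Mog had 36.4, 18.2, 23.6 and 14.5 CPM in the chronic GLASTpos libraries, against a highest control of 5.55 CPM. Its log2 fold change of 3.34 ± 0.62 (edgeR, adjusted p = 0.000918) was the highest of the members in any comparison with controls. Cldn11 had 8.17, 20.5, 18.3, 26.9 and 2.70 CPM in controls and 186, 128, 90.5 and 85.7 CPM at Ech, with a log2 fold change of 2.99 ± 0.48 (edgeR, adjusted p = 0.000115). Mag (2.32 ± 0.45), Mobp (2.43 ± 0.50), Mal (2.18 ± 0.47) and Ermn (1.89 ± 0.48) had adjusted p of 0.00148, 0.00291, 0.0053 and 0.0223 in edgeR. The ranges of Mbp, Mog, Mag, Mobp, Mal and Cldn11 did not overlap those of controls, against 3.76% of all genes. For Ermn 1 control library, replicate 5, had 46.6 CPM, inside the chronic range of 43.1 to 87.7 CPM, and the other 4 had at most 8.89 CPM. Opalin, at 2.29 to 16.8 CPM in the chronic libraries, was not called (2.55 ± 0.81, adjusted p = 0.0894).

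At E1 Cldn11 (2.20 ± 0.44), Mobp (2.09 ± 0.47) and Mal (1.62 ± 0.44) were called in GLASTpos libraries, with adjusted p of 0.00118, 0.00544 and 0.0337 in edgeR. At E4 Mog (2.07 ± 0.60), Mobp (2.01 ± 0.47) and Cldn11 (1.98 ± 0.44) were called, with adjusted p of 0.0477, 0.00633 and 0.00359. Without E4 replicate 1, which had the highest Cldn11 (124 CPM) and Ermn (128 CPM) of its group, 1 member was called at E4, without E4 replicate 2 the count was 6, and without E4 replicate 4 or 6 it was 5. Without E4 replicate 1, 3 members rather than 1 were called between Ech and E4, and without E4 replicate 3 there were 2. At E4, 4 of 6 T cell genes were called higher in these libraries, against 1.66% of all genes, and the T cell sum reached 601 CPM. Cnp had 569, 625.1, 701 and 735 CPM at Ech, all below the lowest control of 780 CPM, but its log2 fold change of -0.33 ± 0.27 was not called (edgeR, adjusted p = 0.593).

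Transcripts on the neuron list were also higher in the chronic GLASTpos libraries. The 6 neuronal genes summed to 473, 1647, 608 and 935 CPM there and to 86.6 to 379 CPM in controls. Of the 6, 4 were called higher, against 1.21% of all genes, and Gad1 rose by 2.42 ± 0.55 (edgeR, adjusted p = 0.00861). Replicate 1, with the highest member sum (2152 CPM), had the lowest neuronal sum of the 4. The astrocyte sum was 22325 to 32105 CPM against 33387 to 34826 CPM in controls. Whether these levels bear on those of the myelin genes was not tested.

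Whether the populations responded differently was tested with 6 interaction terms, and edgeR called 0 of the 9 genes in each. At Ech, 7 members had an unadjusted p under 0.05 for hindbrain GLASTpos minus GLASTneg, as had 2618 of the 23324 genes tested. DESeq2 called 2 members. Mog differed by 3.15 on the log2 scale (95% interval 1.58 to 4.72, adjusted p = 0.123 in edgeR), Cldn11 by 2.42 (1.202 to 3.64, adjusted p = 0.127) and Mbp by 1.93 (0.91 to 2.96, adjusted p = 0.173), where 0.06% of all genes were called in either direction. The same GLAST contrast had 1 member with an unadjusted p under 0.05 at E1 and 1 at E4, against 2083 and 2091 of all genes. DESeq2 called 0 members at either state, and edgeR called 0.00857% of all genes at each. For spinal cord minus hindbrain GLASTneg, 0, 2 and 1 members had an unadjusted p under 0.05 at E1, E4 and Ech. Of all 23324 genes, 2924, 5003 and 4826 had such a p at these states. DESeq2 called 0 members, and edgeR called 0.214, 7.92 and 6.8% of all genes. Mobp at E4 differed by 1.21 (0.01 to 2.42, adjusted p = 0.229 in edgeR). Chronic against E4 in hindbrain GLASTneg libraries also gave 0 calls by edgeR and by DESeq2, where 0.0857% of all genes were called. There, 2 members and 1865 of all genes had an unadjusted p under 0.05. The 2 members were Mobp at -1.08 ± 0.41 and Cldn11 at -1.198 ± 0.39.

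Other genes of the myelin programme were described as lists. In the spinal cord at E4, 6.8% of all genes were called higher and 11.1% lower. Of 19 further myelin and paranode proteins, 11 were called higher and 1 lower there, with a median log2 fold change of 1.32 against 1.64 over the 9 members. Cntn2, the axo-glial adhesion molecule of the juxtaparanode, rose by 1.99 ± 0.36 (edgeR, adjusted p = 1.2e-05), and Omg was the one that fell, by 1.05 ± 0.27. Of 11 lipid and metabolic genes of myelin, 6 were called higher at E4, led by Apod, an apolipoprotein, at 3.26 ± 0.41 and Trf, transferrin, at 2.64 ± 0.35. Of 10 oligodendrocyte transcription factors, 4 were called higher and 1 lower. Sox10 rose by 1.43 ± 0.42 (adjusted p = 0.00785), Tcf7l2, which acts in newly formed oligodendrocytes, fell by 1.38 ± 0.25, and Myrf at 0.87 ± 0.50 and Olig2 at -0.54 ± 0.31 were not called.

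Genes of oligodendrocyte precursors and newly formed oligodendrocytes followed another course in the cord. Only Tnr of the 10 was called higher at E4, but 8 of 10 were at Ech, when the median log2 fold change was 2.04 against 0.72 over the members. The share of all genes called higher was 6.8% at E4 and 5.16% at Ech. Pdgfra, the growth factor receptor of precursors, rose at Ech by 2.26 ± 0.52 (edgeR, adjusted p = 0.000628) and Gpr17, of cells about to myelinate, by 1.70 ± 0.55 (adjusted p = 0.0199). In chronic hindbrain GLASTpos libraries 1.21% of all genes were called higher. Among them were 6 of 19 further myelin proteins, 6 of 11 lipid genes, 5 of 10 transcription factors and 3 of 10 precursor genes. Myrf rose there by 3.13 ± 0.74 (adjusted p = 0.0109) and Olig2 by 1.96 ± 0.37 (adjusted p = 0.000918). Between the control hindbrain populations, 9 of 19, 9 of 11 and 7 of 10 genes of the first 3 lists were higher in GLASTneg, among them Olig2 by 3.69 ± 0.37. In that comparison 7.06% of all genes were called higher and 3.4% lower. The 3 myelin proteins that were lower, as Cnp was, were the connexin Gjc3 (-2.48 ± 0.26), the proteolipid Gpm6b (-1.63 ± 0.20) and the tetraspanin Cd9 (-1.39 ± 0.36).

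In the FVB/N subtype experiment the highest levels were in the libraries labelled hindbrain GLASTneg, which the study's expression table names spinal cord GLASTneg. Cldn11 had 857, 710 and 646 CPM there, against 357, 129 and 120 in forebrain GLASTneg, 267, 138 and 235 in forebrain GLASTpos, 94.2, 49.0 and 90.4 in hindbrain GLASTpos and 20.5, 55.1 and 62.02 in spinal cord GLASTneg, all as labelled. The libraries labelled hindbrain GLASTneg were the only group above all others for Cldn11. By label, 8 members were higher in hindbrain GLASTneg than in hindbrain GLASTpos, from 1.14 ± 0.27 for Mbp to 3.63 ± 0.37 for Mag (edgeR, adjusted p = 0.00222 and 5.36e-13), where 2.03% of all genes were called higher. Also by label, 7 were lower in spinal cord than in hindbrain GLASTneg, with Mag at -5.05 ± 0.41 (adjusted p = 9.3e-18), where 3.93% of all genes were called lower. By label, 7 were higher in hindbrain than in forebrain GLASTneg and 6 lower in hindbrain than in forebrain GLASTpos, where 1.18% and 1.73% of all genes were called in those directions. Mbp alone differed between the forebrain gates, at -1.2005 ± 0.27 for GLASTneg against GLASTpos (adjusted p = 0.00284, 0.675% of all genes lower).

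Under the expression-table names, the direction between cord and hindbrain turned. With them, 4 members were higher and 0 lower in spinal cord than in hindbrain GLASTneg, Cldn11 by 1.79 (adjusted p = 6.16e-05 in edgeR) and Mal by 1.47 (adjusted p = 0.00062), which is the direction seen in the control EAE libraries. Likewise 6 members were higher in hindbrain GLASTneg than in GLASTpos, and 3 were higher in forebrain GLASTneg than in GLASTpos. Over all genes 0.421, 2.52 and 0.147% were called higher in these comparisons, in that order. Cnp was 1.60 ± 0.25 higher in hindbrain GLASTneg than in GLASTpos by label (adjusted p = 9.25e-07) and -0.45 under the expression-table names (adjusted p = 0.361). The comparisons between isolated groups of this experiment thus depend on which names are used. Cord Hox genes summed to 410.4 to 493.2 CPM in the libraries that the expression table names spinal cord GLASTneg, and to 0 in those labelled so. In the EAE experiment these genes summed to 288 to 483 CPM in spinal cord controls and to at most 11 CPM in hindbrain libraries. For the cord group, the Hox levels thus go with the expression-table names. Which naming is right for the other groups was not tested.

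**Figure D4:**
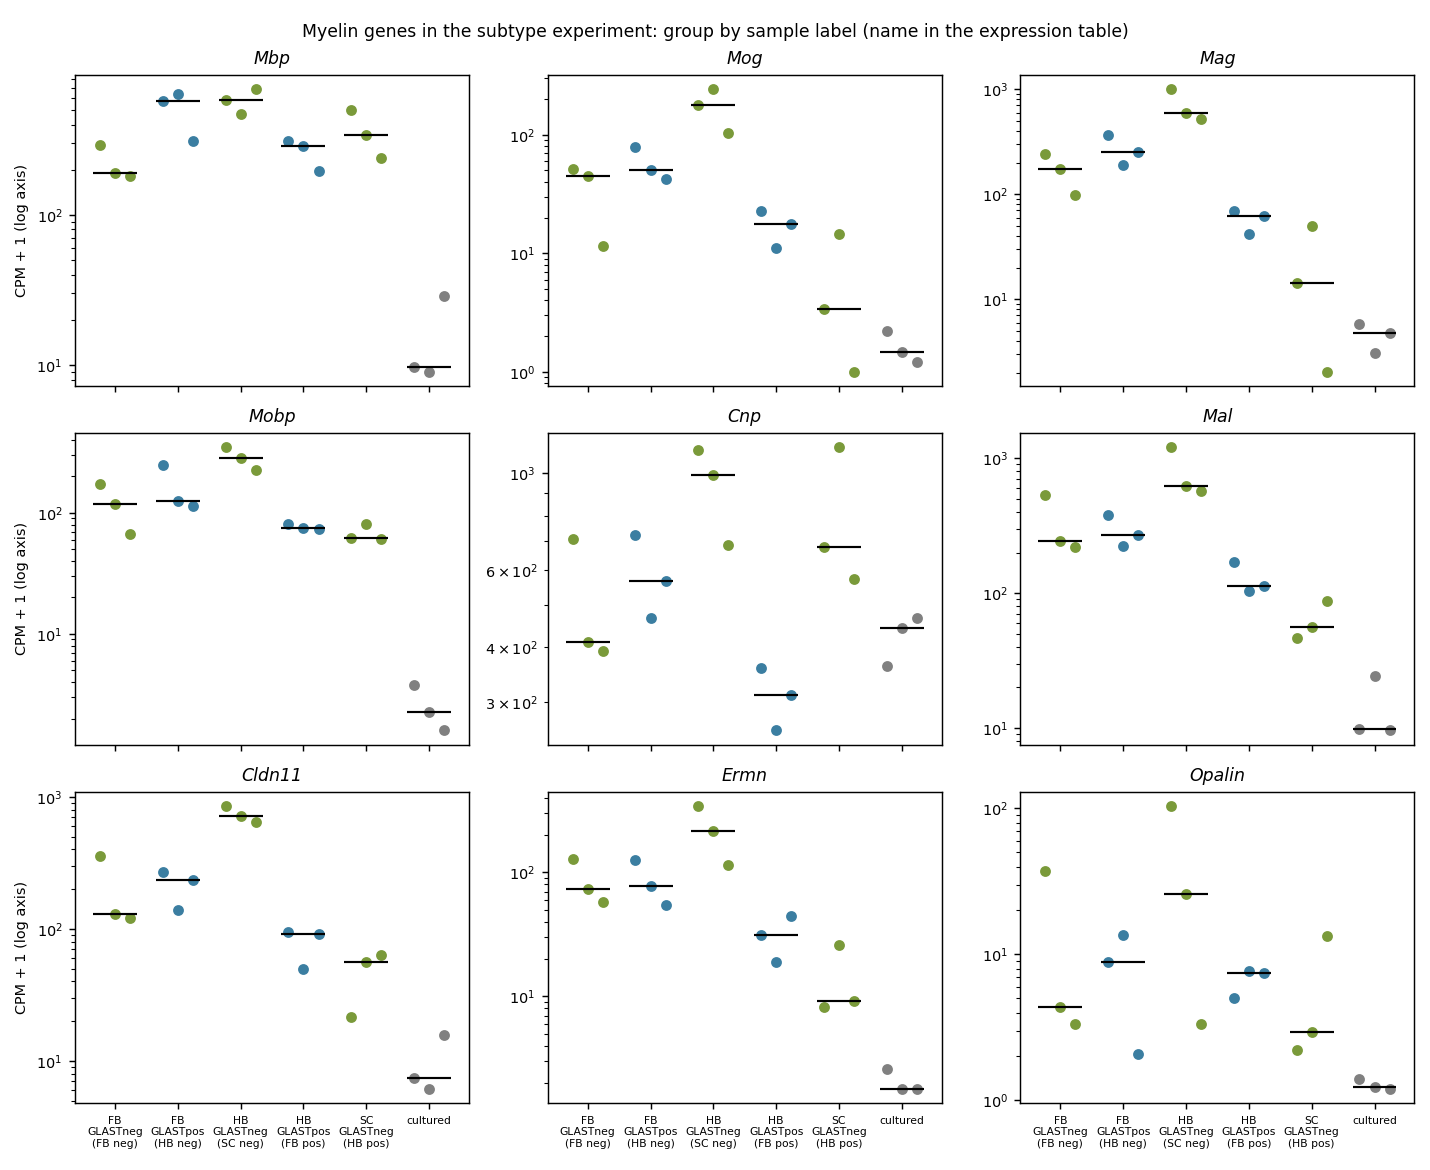
Level of each myelin gene in the 18 subtype libraries (CPM + 1, log axis), with groups as labelled and the name given by the study's expression table in brackets; points are libraries and bars medians, and the cultures were scaled separately from the isolated libraries. The libraries labelled hindbrain GLASTneg lie highest for all 9 genes by median, and cultured astrocytes have at most 28.03 CPM of any gene except Cnp.

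Cultured astrocytes held little myelin transcript apart from Cnp. Mobp had 2.78, 1.26 and 0.60 CPM and Mbp 8.75, 8.001 and 28.03 CPM in the 3 cultures. All 8 members other than Cnp were lower in culture than in the mean of the isolated groups, with log2 fold changes of -4.05 (Mal) to -6.45 (Mobp) and adjusted p of 0.00039 or less in edgeR, where 8.38% of all genes were called lower. Opalin had at most 2 counts in any culture. Cnp had 362, 442 and 465 CPM in culture, within the 267 to 1169 CPM of the isolated libraries when scaled together with the cultures, and was not called (-0.49 ± 0.21, adjusted p = 0.0643). The cultures differed from the isolated cells in strain, age, region and RNA extraction as well, which cannot be told apart.

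Ordered by median over the 12 EAE groups, the 4 spinal cord groups ranked highest for all 9 genes. Cldn11 and Ermn had the order E4, E1, Ech and C within the cord, and a gap without overlap lay between Ech and C for both, while all neighbours above it overlapped. For Mbp the cord order was E4, Ech, E1 and C, with every neighbouring pair overlapping. The lowest group was GLASTpos control for Mbp (median 66.6 CPM), Mobp (14.7 CPM), Cldn11 (18.3 CPM) and Ermn (7.36 CPM), and GLASTneg control for Cnp (344 CPM), whose 4 GLASTpos groups all ranked above the 4 GLASTneg groups. Among 10963 genes averaging 5 CPM or more, those most like the mean of the 9 members over the 66 libraries were Enpp2 (Pearson r = 0.99), Tspan2, Tmem88b, Pex5l and Cntn2 (0.97 to 0.98). Over the 15 isolated subtype libraries, Ckb, Tmem88b, Ndrg1 and Ugt8a were among the most alike of 10554 genes (0.93 to 0.96), while Mbp (0.53), Cnp (0.50) and Opalin (0.62) followed the mean of the members less closely than the other 6 (0.92 to 0.97). The points share libraries, depth and group structure, and no test was attached to them.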

How the data were processed

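Myelin transcripts were measured by QuantSeq 3′ mRNA sequencing in 84 libraries, 66 of the EAE and 18 of the subtype experiment. According to the study's methods and processing notes, the authors aligned 50-base single reads to GRCm38 with HISAT 0.1.5, sorted them with SAMtools and counted reads per Ensembl gene with HTSeq 0.6.1p1. The 2 deposited tables hold raw counts, not normalized. Nothing was said of duplicates or molecular identifiers, so that intervals cover counting error only as far as reads are independent.

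From these counts, CPM used each library's total multiplied by its edgeR TMM factor, set within the EAE libraries, the isolated subtype libraries and, for cultures, all subtype libraries. A gene entered a fit with a total of 10 counts or more (23324, 14957 isolated and 17126 with cultures) and was tested with edgeR 4.0.16 in R 4.3.3 (TMM, quasi-likelihood, 1 fit over all groups of an experiment, two-sided). p-values were adjusted by Benjamini-Hochberg over all genes tested. Errors are SE, worked back from each log2 fold change and its F statistic, and 95% intervals were built from that SE. On simulated data for the E4 spinal cord comparison with 200 of 22895 genes changed by a log2 of 2, 74.5% were recovered and 5 others were called. For the hindbrain gates of the subtype experiment, with 200 of 14660 genes changed, 54.5% were recovered and 3 others were called. Each simulation gave all genes the same dispersion, 0.25 and 0.15 in that order. Alternatives used DESeq2 1.42.0, limma 3.58.1, other size factors, other filters, other sets of libraries and leaving out each library.

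The members were fixed by name and every one of them is reported. The members, marker lists and tests were chosen with earlier results of these data known, and lists are described by counts without a test. Genes like the members were taken as the 5 with the highest Pearson correlation with their mean, of which 1 is not reported here. Samples were grouped by their labels. Replicate numbers were not used to pair samples in the main fits. Deviations of same-numbered EAE libraries of different groups correlated by -0.22 to 0.34 (mean -0.004). Many of these pairs join different states, so the values cannot exclude mice shared between populations of a state.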

Additional observations from a re-analysis of the deposited data

Results flagged for a closer look

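In 10 of the 108 pairs of a gene and an EAE group, 1 library lay far from the others by Dixon's gap test at the 95% level. Its nominal rate of 1 in 20 is for independent, normally spread values. Here CPM were not put on a log scale and the members share libraries, so that rate need not hold. In the spinal cord controls, replicate 3 had 3763 CPM of Mbp with the next library at 1891 CPM, and 1543 CPM of Cldn11 with the next at 765 CPM. In hindbrain GLASTpos libraries at E4, replicate 1 had 124 CPM of Cldn11 (next 64.4 CPM) and 128 CPM of Ermn (next 50.8 CPM). Ermn also had a high library in GLASTpos controls, 46.6 CPM in replicate 5 with the next at 8.89 CPM, and at E1, 71.1 CPM in replicate 2 with the next at 41.4 CPM. Mal had 242 CPM in chronic GLASTpos replicate 1, with the next at 84.9 CPM. Opalin, the member with the lowest counts, had 65.5 CPM in hindbrain GLASTneg E4 replicate 6 (next 27.6 CPM), 7.18 CPM in GLASTpos control replicate 3 (next 1.27 CPM) and 16.9 CPM in GLASTpos E1 replicate 1 (next 5.78 CPM). All 10 were the highest library of their group. What set these libraries apart was not tested.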

How the results depend on the processing

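Counts of members called moved by over 1.5 times as follows, and the cause was not tested unless the setting itself gives it. For hindbrain GLASTneg at E1 the 2 calls became 6 without a filter on low counts and 7 with hindbrain GLASTneg libraries alone. For GLASTpos the 3 calls at E1 became 6 without a filter, and the 3 at E4 became 6 without a filter and 5 with DESeq2. The 2 falls between E4 and Ech in the cord became 4, and the 1 rise in GLASTpos became 3, without a filter. The chronic GLASTpos minus GLASTneg difference went from 0 calls to 3 without a filter and 2 with DESeq2. For control GLASTneg against GLASTpos, limma voom with libraries sharing a title number as a block gave 0 higher and 0 lower. Of 2 alternatives chosen after seeing the data, the same fit without that block also gave 0 and 0, and the block fitted on control hindbrain libraries alone gave 7 and 1. Shares of all genes called under the settings of this paragraph are not given, so its counts have no background beside them.

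In the subtype experiment, the 1 lower forebrain call became 0 and the 6 lower hindbrain against forebrain GLASTpos calls became 2 when all 18 libraries were fitted, and the latter 3 with filterByExpr. Under the expression-table names, counts were 3 higher and 0 lower for forebrain GLASTneg against GLASTpos. They were 4 higher and 0 lower for spinal cord against hindbrain GLASTneg. For hindbrain against forebrain they were 1 higher for GLASTneg, and 1 higher and 2 lower for GLASTpos. Shares of all genes are not given for hindbrain against forebrain under the expression-table names, nor for the other fits of this paragraph. Reversed log2 fold changes under these names were -0.45 for Cnp between hindbrain gates, 1.63 for Mog, 1.40 for Mag, 0.83 for Mobp, 1.47 for Mal, 1.79 for Cldn11, 1.41 for Ermn and 2.61 for Opalin between cord and hindbrain, and -0.20 for Mal and -0.012 for Ermn between hindbrain and forebrain GLASTneg.

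Leaving out 1 library in turn gave 2 to 7 calls for the cord at E1, 7 to 8 at E4 and 1 to 4 at Ech, 0 to 3 and 0 to 2 for hindbrain GLASTneg at E1 and E4, 2 to 3, 1 to 6 and 5 to 8 for GLASTpos at E1, E4 and Ech, 1 to 2 and 1 to 3 for Ech against E4 in cord and GLASTpos, and 0 to 1 for cord minus hindbrain GLASTneg at E4 (1 without cord control replicate 3). For the subtype groups it gave 0 to 1 for the forebrain gates (0 without GLASTneg replicate 3 or GLASTpos replicate 2), 4 to 8 for hindbrain against forebrain GLASTneg (4 without forebrain replicate 3 or hindbrain replicate 1) and 2 to 7 for GLASTpos (2 without hindbrain replicate 2 or forebrain replicate 1, 3 without hindbrain replicate 3). With the replicate number as a block, the 2 hindbrain GLASTneg E1 calls became 5 and the 1 GLASTpos Ech against E4 call became 3; of 89 single-gene calls 88 held. Some same-numbered libraries of a state share a title number, and others do not. With the sheet number range as a covariate in the cord, 15 of 16 single-gene calls held. Shares of all genes called are not given for the fits of this paragraph. Opalin and, in GLASTpos cells, Mog lay near the 3-count floor, where depth limits the calls.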
